A study of Mus musculus with 82 samples.

Results

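Messenger RNA levels were followed for 55 lysosomal genes in embryonic fibroblasts (MEFs) and primary hepatocytes of the mouse, with and without AMP-activated protein kinase (AMPK), after a short exposure to the AMPK activators 991 and AICAR. The genes were a list of 57 symbols for lysosomal hydrolases, lysosomal membrane proteins and subunits of the vacuolar proton pump. Of these, 55 had at least 1 probe set annotated to that gene symbol alone, among 18193 genes measured in this way, and Atp6v0c and Cd63 had none and are not analysed here. The 55 genes were 14 of the V-ATPase, 9 membrane proteins and 32 luminal proteins. The list was chosen with earlier results of these data known. Counts of members beside shares of all genes are therefore a description and not an independent test.

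RNA was hybridised to 82 Affymetrix arrays, 23 from MEFs and 59 from hepatocytes, of the C57BL/6 background. Cells were either wild type (WT) or AMPK alpha1-/- alpha2-/-, which lacks both catalytic subunits and is called dKO below. Every dish was exposed for 4 h, and the vehicle was DMSO. The titles of the control arrays read "No Treat" in MEFs and "No" in hepatocytes, while their source names read vehicle. MEFs received 10 µM 991 or 2 mM AICAR in DMEM-Glutamax with fetal calf serum. Hepatocytes, isolated by collagenase perfusion and kept overnight in M199 with dexamethasone, received 3 µM 991 or 300 µM AICAR. Each MEF group held 4 technical replicates, except WT cells with 991, which held 3 because the submitters excluded technical replicate 1. The labels give MEFs no biological replicate, so p-values in MEFs measure the spread between technical replicates, and the genotype cannot be told apart from the line of cells that carries it. Each hepatocyte group held 2 biological replicates, called preparations here, of 5 technical replicates each, except that dKO vehicle preparation 1 held 4 after 1 exclusion by the submitters. Whether the dKO hepatocytes came from mice lacking AMPK throughout the body or only in the liver is not stated in the labels. The doses of 991 and of AICAR differ between the cell types, and the compounds share their vehicle arrays, so neither cell types nor compounds were tested against each other.

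The lysosome is the acidic compartment in which cells degrade proteins, glycans and lipids delivered by endocytosis and autophagy. The V-ATPase acidifies it: the peripheral V1 sector hydrolyses ATP and the membrane-embedded V0 sector carries protons across. Transporters and channels of the lysosomal membrane export the products, and genes of all these classes are known targets of the transcription factors TFEB, TFE3 and MITF, which recognise promoter elements built on the core CACGTG. AMPK is a kinase that responds to a low energy state. 991 binds it directly, whereas AICAR is converted in the cell to ZMP, an analogue of AMP that also acts on other AMP-regulated enzymes.

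Promoter sequence is shown for 7 members, because these are members on which the changes below turn or in which that core is repeated. The sequences are the 80 bases just before the start site, 5′ to 3′ on the strand of the gene, from RefSeq (GRCm38.p6), with each TCACGTG, or its reverse complement CACGTGA, in capitals. The windows were chr8:13159081-13159160 (plus strand) for Lamp1, chr8:3500439-3500518 (plus) for Mcoln1, chr4:117887330-117887409 (minus) for Atp6v0b, chr11:101070014-101070093 (plus) for Naglu, chr17:34931173-34931252 (plus) for Neu1, chr10:42678836-42678915 (plus) for Ostm1 and chr11:73199020-73199099 (minus) for 1 of the starts listed for Ctns.
Lamp1: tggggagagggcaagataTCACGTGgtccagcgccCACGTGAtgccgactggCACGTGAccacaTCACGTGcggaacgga
Mcoln1: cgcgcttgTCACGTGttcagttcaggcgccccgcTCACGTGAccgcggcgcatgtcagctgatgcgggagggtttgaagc
Atp6v0b: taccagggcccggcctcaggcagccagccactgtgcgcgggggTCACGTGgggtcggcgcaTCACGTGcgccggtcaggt
Naglu: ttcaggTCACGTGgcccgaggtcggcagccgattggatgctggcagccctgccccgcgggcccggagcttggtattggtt
Neu1: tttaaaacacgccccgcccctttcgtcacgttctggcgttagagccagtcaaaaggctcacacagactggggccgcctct
Ostm1: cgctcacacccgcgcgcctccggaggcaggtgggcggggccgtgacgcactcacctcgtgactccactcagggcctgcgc
Ctns: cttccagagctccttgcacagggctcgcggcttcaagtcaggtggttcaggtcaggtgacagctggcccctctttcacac
Over the whole window given by RefSeq, from 250 bases before to 50 bases after the start, 48 of the 57 listed genes had a sequence. TCACGTG on either strand was present in 16 of the 48 (33.3%), against 1160 of the 27025 genes with such a window (4.29%). The shorter CACGTG, which lies inside every TCACGTG, was present in 18 of the 48 (37.5%), against 2187 of all genes (8.09%). By class, TCACGTG was found in 4 of 11 V-ATPase genes (36.4%), 4 of 9 membrane proteins (44.4%) and 8 of 28 luminal proteins (28.6%). Lamp1, which encodes an abundant glycoprotein of the lysosomal membrane, held 4 copies within the bases shown, and Mcoln1 and Atp6v0b held 2 each, whereas the windows of Neu1, Ostm1 and Ctns held none. Only exact matches were counted, so an element that departs from TCACGTG or CACGTG by a base was not searched for.

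The values are log2 intensities, so that a difference of 1 is a doubling. Changes are given with the standard error from limma, a linear model fitted over all 18193 genes, and a gene is called where its Benjamini-Hochberg adjusted p was under 0.05. Array medians spanned 6.16 to 6.25 in MEFs and 5.88 to 6.08 in hepatocytes. Markers of hepatocytes (9 of 10 listed were measured) summed to 116380 to 131962 on the linear intensity scale on hepatocyte arrays and 494 to 622 on MEF arrays. The catalytic subunit genes gave only a partial check of the genotype. Prkaa1 ran from 4.81 to 5.93 over the 30 WT hepatocyte arrays and from 4.21 to 4.83 over the 29 dKO arrays, but in MEFs it ran from 7.70 to 8.53 in WT and from 7.90 to 8.55 in dKO. Prkaa2 overlapped between the genotypes in hepatocytes (9.52 to 9.85 in WT, 9.37 to 9.75 in dKO) and ran from 5.99 to 6.33 in WT and 5.76 to 6.12 in dKO MEFs. Which part of each gene was deleted is not stated in the labels, and a probe set outside it checks nothing.

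In WT MEFs, 991 raised many of the listed lysosomal genes, by small amounts. Of the 55 members, 36 rose and none fell, where 14.0% of all genes were called higher and 25.9% of the genes in the upper range by mean level (the median and above) in MEFs, which holds 48 of the members. The median change of the members was 0.19, against 0.0 over all genes, and 49 members had a change above 0. The V-ATPase rose in 11 of 14 members, the membrane proteins in 8 of 9 and the luminal proteins in 17 of 32. These counts moved with a technical property of the arrays: the interquartile range of the array values, a measure of contrast, was 3.73 to 3.89 with 991 and 3.58 to 3.74 with vehicle, and 20 members were called when that width entered the model. The share of all genes called in that fit is not given, and 14.0% and 25.9% belong to the fit without the width. The part of the array width in the result was not tested beyond that fit.

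**Figure D1:**
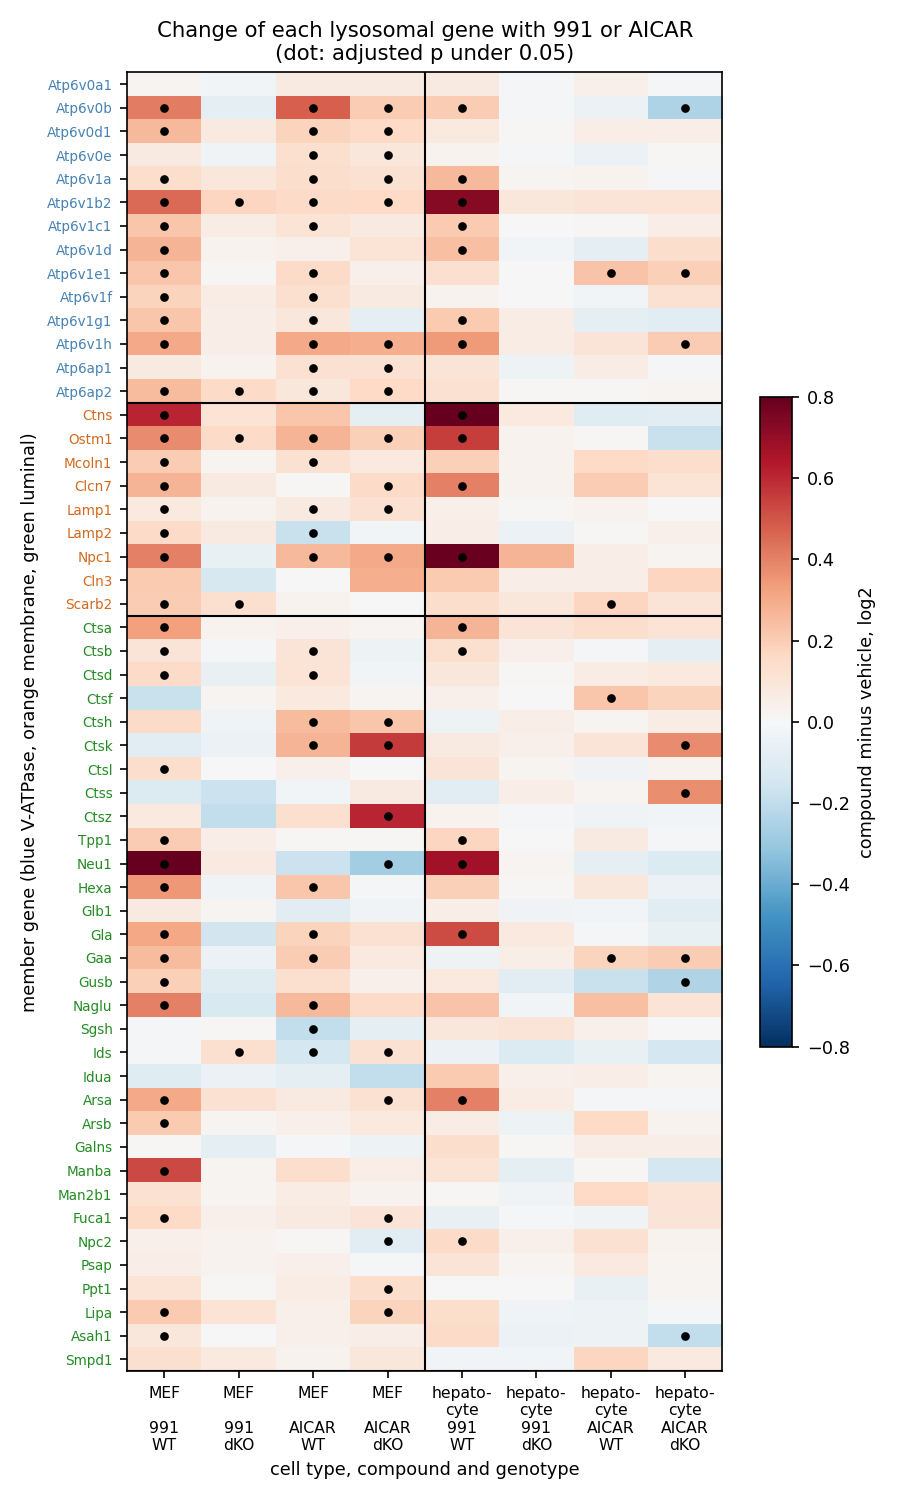
Change in log2 intensity of each of the 55 members (rows, by class) in the 8 comparisons of a compound with vehicle (columns), with the colour scale ending at 0.8 on either side and a dot where the change was called. In WT MEFs with 991, 36 members carry a dot and all of them are on the higher side, against 5 in dKO MEFs, 18 in WT hepatocytes and 0 in dKO hepatocytes.

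All 8 V1 subunits rose in WT MEFs with 991, as did 2 of 4 V0 subunits and 1 of 2 accessory subunits. Atp6v1b2, the B subunit of the ATP-hydrolysing sector, stood at 10.06, 10.14, 10.09 and 9.96 with vehicle and at 10.44, 10.54 and 10.55 with 991. The arrays of the 2 groups did not overlap, and the rise was 0.45 ± 0.04 (adjusted p = 9.7e-09, a 1.36-fold higher intensity). Atp6v0b, a proteolipid of the proton channel, went from 10.47, 10.77, 10.60 and 10.63 to 11.08, 11.02 and 10.98, a rise of 0.41 ± 0.06 (adjusted p = 2.44e-05). Atp6v1h, a regulatory subunit of V1, went from 10.29, 10.41, 10.31 and 10.38 to 10.65, 10.65 and 10.64. Its rise of 0.30 ± 0.04 was again larger than the spread within either group (adjusted p = 6.52e-07). Atp6v1d, of the rotating stalk, rose by 0.27 ± 0.05 and Atp6v0d1, which joins V1 to V0, by 0.26 ± 0.04. The further probe sets of these genes, all at lower levels, were divided. Those of Atp6v1b2 gave 0.65 (adjusted p = 0.000385), -0.01 and -0.07, those of Atp6v1h gave 0.23 (adjusted p = 0.047) and -0.09, and those of Atp6v0b gave 0.38 (adjusted p = 1.49e-05) and 0.05. Over the called members of this comparison, 41 of 47 other probe sets had the same sign, 21 of them called, and none was called with the opposite sign.

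Among the membrane proteins, Ctns, the exporter of cystine, had the largest change. It stood at 5.95, 6.19, 5.88 and 6.07 with vehicle and at 6.86, 6.75 and 6.29 with 991, a rise of 0.61 ± 0.10 (adjusted p = 4.59e-05). All 3 arrays with 991 lay above the 4 with vehicle, although the lowest of them, at 6.29, lay close to the highest vehicle array. The vehicle level of Ctns was low, at percentile 37.9 among the genes in WT MEFs. Npc1, which moves cholesterol out of the lysosome, went from 7.45, 7.65, 7.35 and 7.46 to 8.04, 7.89 and 7.70, a rise of 0.40 ± 0.09 (adjusted p = 0.00167). Ostm1, the partner subunit of the chloride-proton exchanger Clcn7, went from 9.34, 9.46, 9.38 and 9.37 to 9.79, 9.75 and 9.74. Ostm1 rose by 0.38 ± 0.04 and Clcn7 by 0.27 ± 0.05, both called. Mcoln1, a calcium-permeable channel, rose by 0.20 ± 0.05 and Lamp1 by only 0.08 ± 0.02 (adjusted p = 0.0184).

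Neu1, the lysosomal sialidase, changed most of all members in WT MEFs with 991. Its values were 7.07, 7.46, 7.11 and 7.35 with vehicle and 8.15, 8.00 and 7.98 with 991, a rise of 0.80 ± 0.08 (adjusted p = 4.11e-08) or 1.74-fold. Its 2 other probe sets gave 0.29 (adjusted p = 0.0997) and 0.03, so the size of this change rests on the probe set used. Manba, a mannosidase of glycoprotein breakdown, went from 5.97, 5.68, 5.70 and 5.69 to 6.51, 6.32 and 6.03, a rise of 0.53 ± 0.11. Naglu, which acts on heparan sulfate, rose by 0.40 ± 0.08 and Hexa, a subunit of the ganglioside-degrading hexosaminidase, by 0.35 ± 0.05. In all, 10 of 16 glycosidases and sulfatases, 5 of 10 proteases and 2 of 6 lipid-handling proteins rose. The aspartic protease Ctsd was among them, with a rise of 0.15 ± 0.03.

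In dKO MEFs, 991 raised 5 members and lowered none, where 1.88% of all genes were called higher, and the median change of the members was 0.02. The share at or above the median level is not given for this comparison. The 5 were Atp6v1b2 (0.17 ± 0.04), Atp6ap2 (0.15 ± 0.03), Ostm1 (0.15 ± 0.03), Scarb2 (0.13 ± 0.03) and Ids (0.13 ± 0.04). Atp6ap2 is an accessory protein of the pump, Scarb2 carries glucocerebrosidase to the lysosome, and Ids removes sulfate from heparan and dermatan sulfate. Atp6v1b2 stood at 9.92, 9.88, 9.93 and 9.93 with vehicle and at 10.06, 10.15, 10.08 and 10.07 with 991, without overlap. Under quantile normalization 4 members were higher and 1 lower, and 3 were called without dKO vehicle replicate 1 or without dKO vehicle replicate 2. Neu1, in contrast, was at 8.10, 8.11, 8.22 and 8.10 with vehicle and at 8.21, 8.16, 8.24 and 8.20 with 991. Ctns was at 6.14, 5.98, 6.16 and 6.07 with vehicle and at 6.25, 6.17, 6.20 and 6.18 with 991, and neither gene was called.

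**Figure D2:**
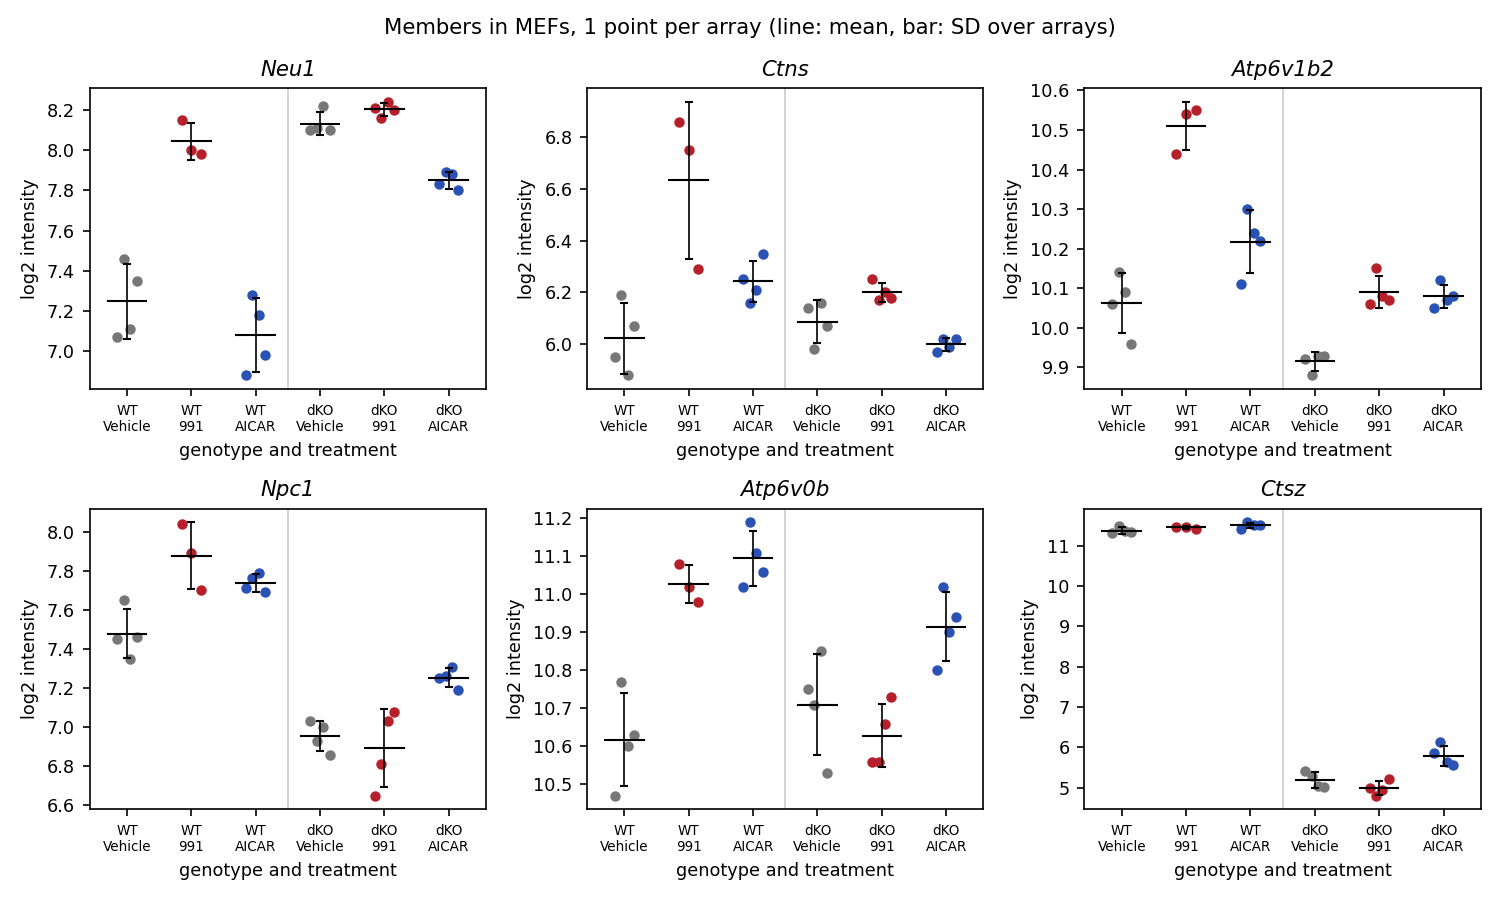
Log2 intensity (vertical axes) of Neu1, Ctns, Atp6v1b2, Npc1, Atp6v0b and Ctsz on every MEF array, by genotype and treatment, with a point for each technical replicate, a line at the group mean and a bar for the standard deviation. Neu1 separates WT arrays with 991 (7.98 to 8.15) from WT arrays with vehicle (7.07 to 7.46), while the dKO vehicle arrays already lie at 8.10 to 8.22.

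The difference between the genotypes was tested directly, as the change in WT minus the change in dKO. In MEFs with 991 it was called in 21 of the 55 members, all with the larger rise in WT, where 4.37% of all genes and 7.9% of those at or above the median level were called in that direction. The 21 were 8 of the V-ATPase, 3 membrane proteins and 10 luminal proteins. Among V-ATPase members the difference was 0.49 ± 0.08 for Atp6v0b, 0.27 ± 0.06 for Atp6v1b2, 0.25 ± 0.05 for Atp6v1h and 0.24 ± 0.07 for Atp6v1d. It was 0.20 ± 0.04 for Atp6v1e1, 0.19 ± 0.05 for Atp6v0d1, 0.17 ± 0.04 for Atp6v1g1 and 0.16 ± 0.04 for Atp6v1c1, stalk and stator subunits of V1 apart from Atp6v0d1. The membrane proteins were Ctns (0.50 ± 0.13), Npc1 (0.46 ± 0.12) and Ostm1 (0.23 ± 0.05). Among the luminal proteins Neu1 stood first at 0.73 ± 0.11 (adjusted p = 0.000114), but its other probe sets gave 0.20 and -0.16, neither called. Other probe sets also turned the sign for Atp6v1b2 (-0.12 and -0.05, beside 0.58, which was called) and Atp6v1h (-0.08, beside 0.18).

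The remaining luminal members of that group were enzymes of glycan, glycolipid and protein breakdown. Naglu differed by 0.51 ± 0.11, Manba by 0.51 ± 0.14, Gla, the galactosidase of globoside breakdown, by 0.46 ± 0.08, and Hexa by 0.37 ± 0.06. Manba was read at unlike levels, with vehicle percentiles of 34.1 in WT and 59.1 in dKO MEFs. Ctsa, the protease that also protects Neu1, differed by 0.30 ± 0.07 (-0.12 on its other probe set), the glycogen-degrading Gaa by 0.29 ± 0.07 and the glucuronidase Gusb by 0.28 ± 0.08. Ctsd differed by 0.21 ± 0.04 and the peptidase Tpp1 by 0.15 ± 0.05. None of the 6 lipid-handling proteins was called, and Lamp1 had a difference of 0.05 ± 0.03 (adjusted p = 0.418). Of the 24 other probe sets of the 21 members, 19 had the same sign and 4 of these were called. The count of members fell to 8 with the array width in the model, and to 13 without WT 991 replicate 2 or without WT 991 replicate 3. The shares of all genes called in those fits are not given.

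**Figure D3:**
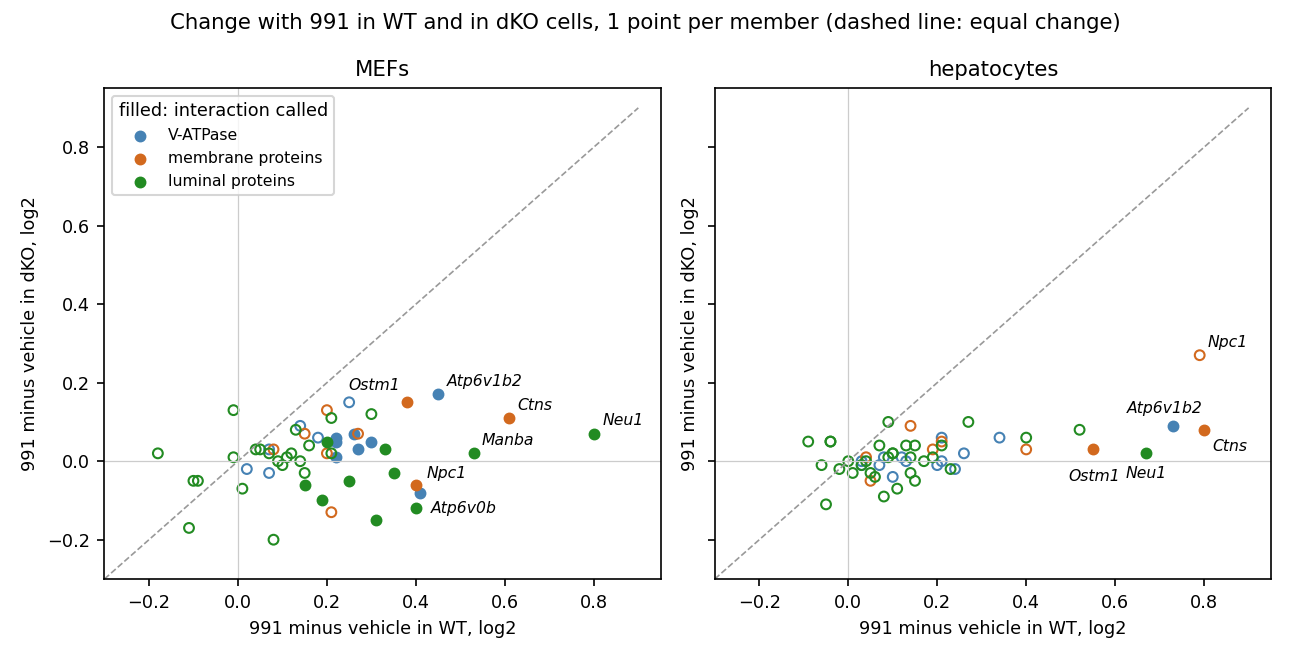
Change with 991 in dKO cells (vertical axis, log2) against the change in WT cells (horizontal axis, log2) for the 55 members, in MEFs and in hepatocytes, coloured by class, filled where the difference between genotypes was called, with a dashed line at equal change. Neu1 lies farthest below the line in MEFs (WT minus dKO 0.73), and Ctns, Neu1, Atp6v1b2 and Ostm1 are the filled points in hepatocytes (0.72, 0.65, 0.64 and 0.52).

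In WT hepatocytes, 991 at its lower dose raised 18 members and lowered none, where 3.72% of all genes were called higher and 5.67% of those at or above the median level, which includes 54 of the members. The median change was 0.13, against 0.03 over all genes. Of the 18, 7 were V-ATPase members, 4 were membrane proteins and 7 were luminal proteins. In 43 of the 55 members the change was above 0 in both preparations, and in 1 it was below 0 in both. The summed intensity of the 12 Kupffer cell and macrophage markers ran from 6862 to 9896 over WT vehicle arrays and from 7570 to 11072 with 991, and its part in the result was not tested. Without WT preparation 1, 10 members were called, and without WT preparation 2, 5 were.

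Ctns had the largest change in WT hepatocytes with 991. Its preparation means, each over the technical replicates, were 7.25 and 7.21 with vehicle and 8.08 and 7.99 with 991, a rise of 0.80 ± 0.07 (adjusted p = 9.11e-05) or 1.74-fold. The change was 0.83 in preparation 1 and 0.78 in preparation 2. Npc1 went from 9.24 and 9.00 to 9.87 and 9.95, a rise of 0.79 ± 0.14 (adjusted p = 0.00582), with less agreement between preparations (0.64 and 0.95). Ostm1 went from 9.11 and 9.08 to 9.66 and 9.65, a rise of 0.55 ± 0.06, and Clcn7 rose by 0.40 ± 0.07. Thus both subunits of the chloride-proton exchanger rose, whereas Lamp1 had a change of 0.04 ± 0.03 (adjusted p = 0.403).

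Atp6v1b2 went from 10.18 and 10.11 to 10.85 and 10.91 in WT hepatocytes, a rise of 0.73 ± 0.07 (adjusted p = 0.000285) or 1.66-fold. Atp6v1h rose by 0.34 ± 0.05, Atp6v1a, the catalytic subunit, by 0.26 ± 0.05 and Atp6v1d by 0.24 ± 0.06. Of the V1 subunits 6 of 8 rose, against 1 of 4 V0 subunits, and Atp6v0d1 had a change of 0.08 ± 0.04 (adjusted p = 0.262). Neu1 went from 9.00 and 9.21 to 9.69 and 9.85, a rise of 0.67 ± 0.06 (adjusted p = 0.000188), and a second probe set of Neu1 was also called, at 0.47 (adjusted p = 0.00237). Gla rose by 0.52 ± 0.09, Arsa, the sulfatase of sulfatide breakdown, by 0.40 ± 0.06 and Ctsa by 0.27 ± 0.05. Ctsd had a change of 0.09 ± 0.04 (adjusted p = 0.171).

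**Figure D4:**
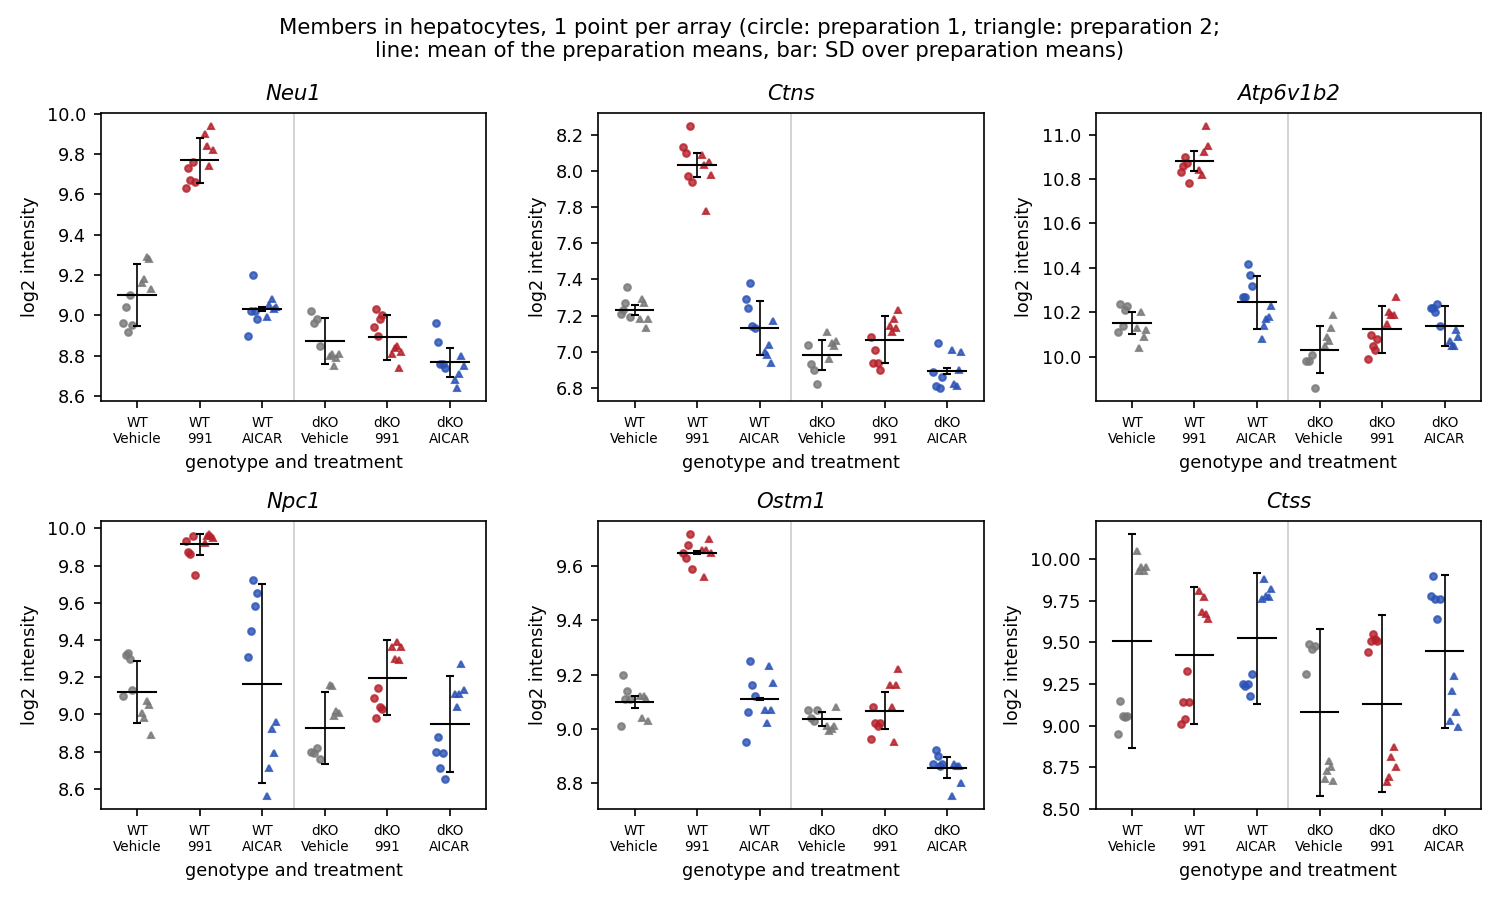
Log2 intensity (vertical axes) of Neu1, Ctns, Atp6v1b2, Npc1, Ostm1 and Ctss on every hepatocyte array, by genotype and treatment, with circles for preparation 1, triangles for preparation 2, a line at the mean of the preparation means and a bar for their standard deviation. Ctns preparation means were 7.25 and 7.21 in WT with vehicle and 8.08 and 7.99 with 991, while Ctss differs between preparations within the same group, at 9.05 and 9.96 in WT with vehicle.

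In dKO hepatocytes none of the 55 members was called with 991 by limma, and none reached an unadjusted p under 0.05, where 0.0055% of all genes, that is 1 gene, were called. The changes ran from -0.11 to 0.27 with a median of 0.01. Neu1 preparation means were 8.95 and 8.79 with vehicle and 8.97 and 8.81 with 991, and those of Ctns were 6.92 and 7.04 against 6.98 and 7.16. Atp6v1b2 stood at 9.96 and 10.11 with vehicle and at 10.05 and 10.20 with 991, which is 0.09 higher in each preparation. Npc1 had the largest value, 0.27 ± 0.14 (adjusted p = 0.998), with 0.27 and 0.28 in the preparations. With every array taken as a sample, 3 members were called.

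The difference between genotypes under 991 was called in 4 hepatocyte members, where 0.33% of all genes and 0.583% of those at or above the median level were called in that direction. These were Ctns (0.72 ± 0.10, adjusted p = 0.0106), Neu1 (0.65 ± 0.09, adjusted p = 0.0106), Ostm1 (0.52 ± 0.08, adjusted p = 0.0257) and Atp6v1b2 (0.64 ± 0.11, adjusted p = 0.0301) by limma. All 4 were also called in MEFs, where 21 of the 55 members were. The difference for Npc1 was 0.52 ± 0.19 and did not pass (adjusted p = 0.481). No member was called when any 1 of the 4 preparations (WT 1 or 2, dKO 1 or 2) was left out.

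The members called with 991 in WT MEFs included most of those called in WT hepatocytes, but 36 of all 55 were called in MEFs. The overlap over all genes was not counted, so no excess over that share is claimed. Of the 36 members that rose in MEFs, 17 (47.2%) also rose in hepatocytes, and these were 94.4% of the 18 hepatocyte members; the other was Npc2, a soluble cholesterol carrier. The 17 were Atp6v0b, Atp6v1a, Atp6v1b2, Atp6v1c1, Atp6v1d, Atp6v1g1, Atp6v1h, Ctns, Ostm1, Clcn7, Npc1, Ctsa, Ctsb, Tpp1, Neu1, Gla and Arsa. Across the 55 members the changes in the cell types had a Pearson r of 0.7, as a description of genes read by mostly the same probe sets, and 44 members were above 0 in both. Members with TCACGTG in the promoter window had a median change of 0.23 in WT MEFs (12 of 16 called) and those without it 0.16 (17 of 30 called). In WT hepatocytes the medians were 0.20 (6 of 16 called) and 0.10 (6 of 30 called). Of the members with a window, the largest change lay in the group without an exact match. That change was 0.8 in WT MEFs (Neu1) and 0.8 in WT hepatocytes (Ctns), against at most 0.41 and 0.52 with it. Ostm1, also without it, stayed below 0.41 in WT MEFs.

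AICAR raised members in MEFs of both genotypes. In WT MEFs 24 members rose and 3 fell, where 19.6% of all genes were called higher and 15.5% lower, and 35.4% of those at or above the median level were called higher. In dKO MEFs 20 rose and 2 fell, where 20.4% of all genes were called higher, 19.8% lower, and 36.6% of those at or above the median level higher. The dKO count lies at the background of genes of that level, and the WT count not far above it. The median change of the members was 0.08 in each genotype. The dKO count of 20 higher and 2 lower became 12 higher and 6 lower under quantile normalization. Of the 24 members that rose in WT and the 20 in dKO, 13 were shared, which is 54.2% of the first and 65.0% of the second. The like overlap over all genes was not counted.

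Of the V-ATPase members, 12 of 14 rose in WT MEFs with AICAR and 8 of 14 in dKO MEFs, and none fell. Of all genes at or above the median level, 35.4% in WT and 36.6% in dKO were called higher. The V-ATPase members lie above that level, at a median percentile of 91.4 in WT and 93.7 in dKO with vehicle. The share called among all genes at their own level was not counted. Atp6v0b went from 10.47, 10.77, 10.60 and 10.63 to 11.02, 11.19, 11.11 and 11.06 in WT, a rise of 0.48 ± 0.06 (adjusted p = 4.33e-08). In dKO it went from 10.75, 10.71, 10.85 and 10.53 to 10.80, 11.02, 10.90 and 10.94, so that the groups overlapped, with a rise of 0.20 ± 0.06 (adjusted p = 0.00412). Atp6v1h rose in both, by 0.30 ± 0.03 in WT, to 10.62, 10.69, 10.65 and 10.64, and by 0.29 ± 0.03 in dKO, from 10.24, 10.25, 10.29 and 10.21 to 10.51, 10.56, 10.60 and 10.48. Atp6v0d1 rose by 0.18 ± 0.03 in WT and 0.16 ± 0.03 in dKO. Atp6v1b2 rose by 0.15 ± 0.04 in WT and 0.16 ± 0.04 in dKO, and Atp6v1e1 by 0.15 ± 0.03 in WT and Atp6ap2 by 0.16 ± 0.03 in dKO.

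Membrane proteins rose in 4 of 9 cases in each MEF genotype with AICAR. Of all genes, 19.6% in WT and 20.4% in dKO were called higher, and 35.4% and 36.6% of those at or above the median level. Ostm1 rose to 9.68, 9.60, 9.68 and 9.66 in WT (0.27 ± 0.03) and from 9.57, 9.56, 9.58 and 9.57 to 9.70, 9.79, 9.77 and 9.77 in dKO (0.19 ± 0.03). Npc1 rose by 0.26 ± 0.08 in WT and by 0.30 ± 0.08 in dKO, where its arrays went from 7.03, 6.93, 7.00 and 6.86 to 7.25, 7.26, 7.31 and 7.19. Lamp1 rose by 0.07 ± 0.02 in WT and 0.12 ± 0.02 in dKO, Mcoln1 by 0.12 ± 0.04 in WT and Clcn7 by 0.15 ± 0.05 in dKO. Lamp2, the receptor of chaperone-mediated autophagy, fell by 0.18 on the log2 scale in WT on the probe set used, but another of its probe sets rose by 0.17 (adjusted p = 7.17e-05), so its direction is not settled by these data.

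Luminal proteins split under AICAR, with 8 of 32 rising and 2 falling in each MEF genotype. Of all genes, 19.6% were called higher and 15.5% lower in WT, and 20.4% and 19.8% in dKO. Among those at or above the median level, 35.4% in WT and 36.6% in dKO were called higher. The counts are therefore not read as particular to luminal proteins. Ctsk, a collagen-degrading cysteine protease, went from 6.68, 6.45, 6.56 and 6.58 to 6.80, 6.75, 6.83 and 6.98 in WT (0.27 ± 0.08) and from 6.07, 6.19, 5.94 and 6.30 to 6.67, 6.63, 6.68 and 6.75 in dKO (0.56 ± 0.08). In WT, Naglu rose by 0.26 ± 0.08, the aminopeptidase Ctsh by 0.25 ± 0.09, Hexa by 0.22 ± 0.04 and Ctsd by 0.11 ± 0.03. In dKO, Ctsh rose by 0.22 ± 0.09 and the acid lipase Lipa by 0.18 ± 0.05. The members that fell in WT were the heparan sulfatase Sgsh (by 0.20 on the log2 scale) and Ids (by 0.14, on the probe set used only). Those that fell in dKO were Neu1 (by 0.28) and Npc2 (by 0.09), and a further probe set of Npc2 rose by 0.62 (adjusted p = 1.25e-08). Neu1 thus had values of 7.83, 7.89, 7.88 and 7.80 with AICAR in dKO, all below the vehicle arrays.

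The AICAR change differed between the MEF genotypes in 7 members, 5 with a higher change in WT, where 7.93% of all genes were called in that direction, and 2 with a lower one, where 4.18% were. Both shares of the members lie near those backgrounds of all genes, and the shares at or above the median level are not given. The 5 were Atp6v0b (0.27 ± 0.08), Hexa (0.23 ± 0.06), Atp6v1g1 (0.16 ± 0.04), Ctsb (0.14 ± 0.04) and Ctsd (0.14 ± 0.04). The 2 were Ctsz, a carboxypeptidase (-0.47 ± 0.13), and Ids (-0.26 ± 0.05). Ids stood at 11.42, 11.32, 11.48 and 11.43 with vehicle and 11.34, 11.19, 11.29 and 11.26 with AICAR in WT, and at 9.85, 9.92, 9.91 and 9.91 against 10.07, 10.08, 9.99 and 9.95 in dKO on the probe set used. The other probe sets of Ids ran from -0.09 to 0.05 in WT with none called, and 1 of them gave 0.14 for the difference. Those of Ctsz gave 0.03 and -0.09 for the difference, and those of Atp6v1g1 -0.09 and -0.01, so the sign of these differences rests on the probe set. Without WT AICAR replicate 2 the count was 4.

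In WT hepatocytes AICAR raised 4 members, where 8.51% of all genes were called higher, and none fell. The share of members lies near that background of all genes. The share of all genes at or above the median level, where 54 of the members lie, is not given. The count moved with the processing: 11 were called under quantile normalization (10 higher, 1 lower), 7 among genes at or above the median level (6 higher, 1 lower) and 2 without the intensity trend. The 4 were Atp6v1e1, with preparation means of 12.20 and 12.14 with vehicle and 12.48 and 12.32 with AICAR (0.23 ± 0.04), Ctsf, from 8.13 and 8.01 to 8.42 and 8.16 (0.22 ± 0.06), Gaa (0.18 ± 0.05) and Scarb2, from 11.23 and 11.34 to 11.45 and 11.47 (0.17 ± 0.04). Without WT preparation 1 none of them was called, and without either dKO preparation 2 members were. Neu1 (9.03 and 9.04), Ctns (7.24 and 7.03) and Ostm1 (9.11 and 9.11) with AICAR lay near or below their vehicle means. Npc1 was 0.31 higher in preparation 1 and -0.21 in preparation 2.

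In dKO hepatocytes AICAR raised 5 members and lowered 3, where 10.5% of all genes were called higher and 7.31% lower, again shares of like size. The shares at or above the median level are not given for this comparison either. Ctsk rose from 6.40 and 6.42 to 6.68 and 6.90 (0.38 ± 0.07) and Ctss, a cathepsin of antigen-presenting cells, from 9.43 and 8.72 to 9.77 and 9.12 (0.37 ± 0.08). Atp6v1h (0.20 ± 0.05), Gaa (0.20 ± 0.05) and Atp6v1e1 (0.19 ± 0.04) also rose, the first on the probe set used only, since another gave -1.11 (adjusted p = 0.000143). Atp6v0b fell by 0.25 on the log2 scale, from 12.11 and 12.20 to 11.92 and 11.89, Gusb by 0.24 and the ceramidase Asah1 by 0.20. Under quantile normalization 5 were higher and 5 lower. Without dKO preparation 1, 2 members were called, and without dKO preparation 2, 3 were.

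Markers of several cell types moved with AICAR in hepatocytes. In dKO hepatocytes with AICAR 7 of the 12 Kupffer cell and macrophage markers were called higher (median 0.29), and their summed intensity was 5685 and 4672 in the vehicle preparations and 6747 and 5220 with AICAR. In WT the vehicle preparations summed to 7125 and 9603, an order that Ctss shared, at 9.05 and 9.96, and 1 of the 12 was called with AICAR (median 0.17). Endothelial markers were called higher in 4 of 8 in dKO (median 0.23) and 3 of 8 in WT (0.12), and hepatocyte markers in 5 of 9 in each (0.22 in dKO, 0.18 in WT). In 11 of the 12 macrophage markers the level was at or above the middle of the genes on the array in hepatocytes. Their part in the result was not tested, and in bulk RNA a changed number of cells and a changed level per cell cannot be told apart.

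No member differed between genotypes in its response to AICAR in hepatocytes by limma, with 6 at an unadjusted p under 0.05, where 0.308% of all genes were called in either direction.

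Vehicle-treated MEFs of the 2 genotypes differed in many lysosomal genes, as they did in many genes of the series. In dKO 26 members were higher and 16 lower than in WT, where 28.0% of all genes were called higher and 19.2% lower, and 13 were not called. Of the 48 members at or above the median level, 24 were higher and 14 lower. The share of all genes of that level is not given here, so the counts are not read as particular to lysosomal genes. The fibroblast markers differed as well, with 8 of 10 called lower in dKO and a median of -1.12, and their summed intensity ran from 40932 to 41976 over WT arrays and from 20014 to 20371 over dKO arrays. Of the 10 fibroblast markers, 6 in WT and 5 in dKO lay at or above the middle of the genes on the array. Their part in the member differences was not tested.

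Ctsz was the most different member between the MEF genotypes. It stood at 11.31, 11.49, 11.37 and 11.33 in WT and at 5.40, 5.29, 5.05 and 5.01 in dKO, a difference of -6.19 ± 0.09 (adjusted p = 2.39e-31), and its other probe sets gave -4.53 and -5.19. With AICAR the dKO arrays rose to 5.85, 6.12, 5.64 and 5.57 (0.61 ± 0.09), still far below every WT array. Ids was lower in dKO too (-1.51 ± 0.04), with -1.34, -0.61, -0.41, -0.06 and 0.12 from its other probe sets. Also lower in dKO were Ctsb (-0.50 ± 0.03), Lipa (-0.49 ± 0.05) and Npc1 (-0.52 ± 0.08). Lamp1 (-0.34 ± 0.02) and Lamp2 (-0.23 ± 0.04) were lower too, as was Ctsd (-0.11 ± 0.03).

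Higher in dKO MEFs were Cln3, a membrane protein whose loss causes Batten disease, at 4.89, 4.87, 5.05 and 4.51 in WT and 7.32, 7.48, 7.37 and 7.34 in dKO (2.55 ± 0.14), although its other probe set gave 0.53. Ctsf, a cysteine protease, went from 6.18, 6.22, 6.05 and 5.78 to 8.39, 8.43, 8.45 and 8.35 (2.35 ± 0.08), with -0.17 from its other probe set, and Manba was 2.30 ± 0.10 higher. Neu1 was 0.88 ± 0.08 higher in dKO, so that its dKO vehicle arrays lay at the level WT arrays reached with 991, and its other probe sets gave 0.42 (adjusted p = 0.00202) and 0.0. Galns, a sulfatase of keratan sulfate, was 0.52 ± 0.05 higher, with -0.06 from its other probe set.

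V-ATPase members were higher in 9 and lower in 3 cases in dKO MEFs, where 28.0% of all genes were called higher and 19.2% lower. The share of all genes at their level is not given. Atp6v0d1 stood at 11.01, 11.16, 10.99 and 11.06 in WT and at 11.48, 11.49, 11.52 and 11.48 in dKO (0.44 ± 0.03), Atp6v1f was 0.43 ± 0.03 higher, Atp6v1e1 0.42 ± 0.03 and Atp6v1c1 0.27 ± 0.03. The other probe sets of Atp6v1e1 gave 0.32, 0.06 and -0.22. Atp6v1b2 (-0.15 ± 0.04), Atp6ap2 (-0.13 ± 0.03) and Atp6v1h (-0.10 ± 0.03) were lower, so subunits of the same sector differed in opposite directions. Scarb2 was 0.38 ± 0.03 higher and Ostm1 0.18 ± 0.03.

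**Figure D5:**
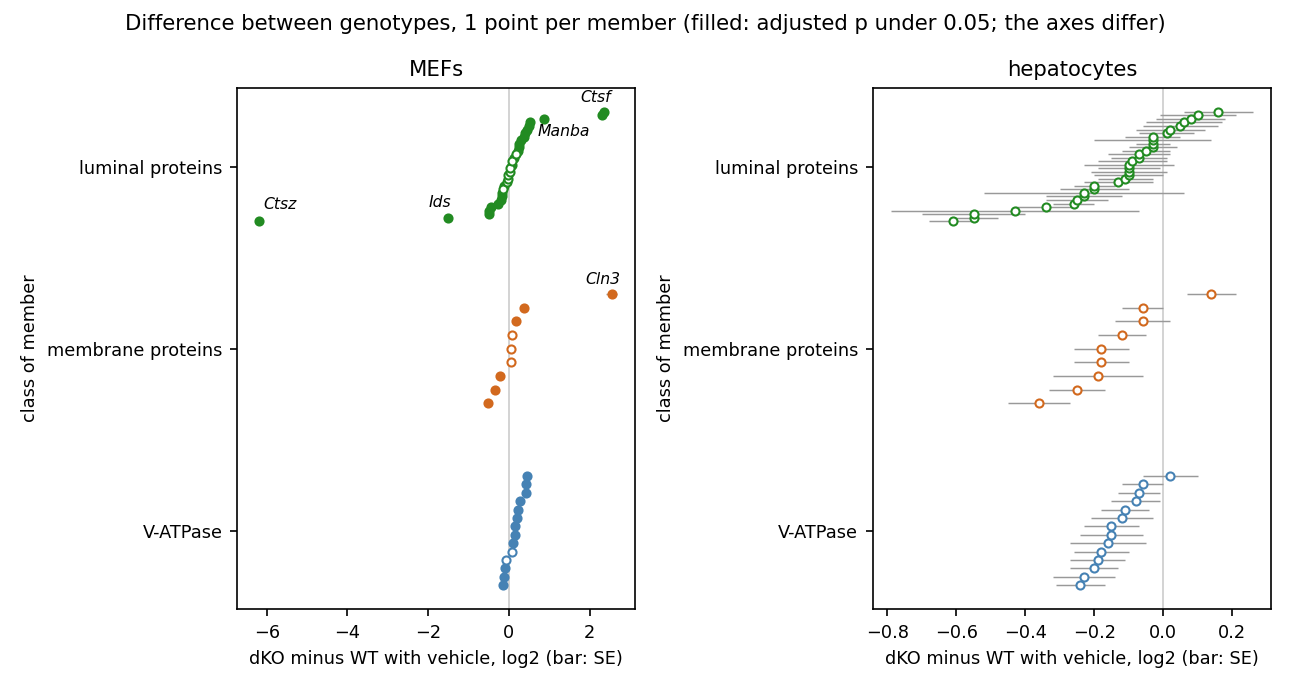
Difference between dKO and WT cells with vehicle (horizontal axes, log2, with a different scale in each panel) for the 55 members in MEFs and hepatocytes, with bars for the standard error and filled points where the difference was called. In MEFs the members run from -6.19 for Ctsz to 2.55 for Cln3, while in hepatocytes they run from -0.61 to 0.16.

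In hepatocytes no member was called between the genotypes with vehicle by limma, with 12 at an unadjusted p under 0.05, and 0.0% of all genes were called (846 of 18193 at an unadjusted p under 0.05). The median difference was -0.11, and 9 of 55 members were above 0. All 12 Kupffer cell and macrophage markers were also below 0 (median -0.43, 8 at an unadjusted p under 0.05, none called), with summed intensities of 4526 to 5766 over dKO vehicle arrays and 6862 to 9896 over WT vehicle arrays, and their part in the member differences was not tested. Hexa had -0.61, Ctsa and Gla -0.55 each, Ctss -0.43 and Cln3 -0.36, and Ctsz, at 13.12 and 13.24 in WT and 12.96 and 12.88 in dKO, had no gap like that in MEFs. Atp6v0d1 had -0.23 ± 0.09, Ctsd -0.20 ± 0.06 and Lamp1 -0.06 ± 0.06 (adjusted p = 0.993 each). The test rests on 2 preparations against 2.

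A list of 46 further lysosomal genes was measured beside the members. In WT MEFs with 991 16 of them rose and 1 fell, where 14.0% of all genes were called higher (25.9% at or above the median level) and 5.65% lower, with Galc (galactosylceramidase) at 0.35, Aga and Ctso at 0.33, Tmem175 (a lysosomal ion channel) at 0.32, and Mcoln2 at -0.24. In dKO MEFs 2 rose and 1 fell, where 1.88% and 1.58% of all genes did. In WT hepatocytes 5 rose, among them Galc (0.60) and Hgsnat (0.45), and 1 fell, Hyal2 (-0.23), where 3.72% and 2.36% of all genes did. In dKO hepatocytes none was called by limma, with 2 at an unadjusted p under 0.05. The difference between genotypes under 991 was called in 2 of the 46 in MEFs, with a higher change in WT. In that direction 4.37% of all genes and 7.9% of those at or above the median level were called. In hepatocytes it was called in 1 of the 46, where 0.33% and 0.583% were. With AICAR 17 rose and 9 fell in WT MEFs, where 19.6% of all genes were called higher (35.4% at or above the median level) and 15.5% lower. In dKO MEFs 12 rose and 6 fell, where 20.4% of all genes were called higher (36.6% at or above the median level) and 19.8% lower. In WT hepatocytes none rose and 4 fell, where 8.51% and 7.99% of all genes did. In dKO hepatocytes 2 rose and 2 fell, where 10.5% and 7.31% did. Tfeb itself had -0.19 in WT MEFs with 991, while Flcn, Fnip1 and Fnip2, which encode folliculin and its partners and act on the Rag GTPases at the lysosomal surface, had 0.71, 0.85 and 0.71. With 991 in dKO MEFs none of these genes was called. There the mean of Flcn went from 8.94 to 8.86, Fnip1 from 8.25 to 8.27, Fnip2 from 7.75 to 7.75. Tfeb went from 7.84 to 7.76. In WT hepatocytes with 991 Flcn went from 9.15 to 10.09, Fnip1 from 9.48 to 9.97 and Fnip2 from 8.88 to 9.65, but Tfeb from 7.59 to 7.61. In dKO hepatocytes Flcn went from 8.83 to 8.87, Fnip1 from 8.97 to 8.93 and Fnip2 from 8.62 to 8.72. AICAR moved these genes in MEFs too, in dKO least for Flcn. With AICAR the mean of Fnip1 went from 8.72 to 9.73 in WT and from 8.25 to 9.29 in dKO MEFs, and Tfeb from 7.85 to 7.69 and from 7.84 to 7.66. Flcn went from 9.21 to 9.61 and from 8.94 to 9.02, and Fnip2 from 8.37 to 9.09 and from 7.75 to 8.12.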

How the data were processed

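RNA was measured on 82 Affymetrix arrays. The authors deposited log2 intensities of 45101 probe sets, made with RMA and Partek per the submitters' processing notes, which name no versions; the normalization of MEF and hepatocyte arrays together or apart is not stated, so levels were not tested across cell types. From these values 64 control probe sets were left out. Of 45037 others, 34945 had 1 gene symbol, 932 several and 9160 none, and 34741 were matched to current symbols by Entrez identifier. Each of 18193 genes was read from 1 probe set, that of highest mean over the arrays of the cell type, which differed between cell types for 2 members. For 38 members there were several probe sets, 128 in all. No array duplicated another. Precision rests on the number of technical replicates in MEFs and on the 2 preparations of each group in hepatocytes.

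Tests used limma 3.58.1 in R 4.3.3 (lmFit, contrasts and eBayes with an intensity trend) over all 18193 genes, with Benjamini-Hochberg adjustment and calls under 0.05, and were tested on simulated data. MEF arrays entered a model of 6 groups. Hepatocyte technical replicates were averaged to 12 preparation means, with the preparation within genotype as a block; the genotype comparison used the 4 vehicle means. Differences between genotypes in a treatment effect are interaction terms. Named members are up to 4 called ones with the largest change in each class, direction and comparison, Lamp1, Ctsd and Atp6v0d1 throughout, and all with a called 991 interaction. Alternatives covered normalization, the probe set, a level filter, the trend, array width, blocks and left-out arrays. The members and lists were chosen with earlier results of these data known.

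Whether technical replicate numbers pair MEF arrays was checked: over 55 pairs of same-numbered arrays the median correlation of deviations was 0.0163 (-0.377 to 0.381), so they share only a number.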

Additional observations from a re-analysis of the deposited data

Results flagged for a closer look

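The change with 991 differed between WT and dKO MEFs, by limma's interaction test, in 21 members, with a higher change in WT in each. For the V-ATPase the difference (WT change minus dKO change, log2) was 0.49 for Atp6v0b, 0.27 for Atp6v1b2, 0.25 for Atp6v1h, 0.24 for Atp6v1d, 0.20 for Atp6v1e1, 0.19 for Atp6v0d1, 0.17 for Atp6v1g1 and 0.16 for Atp6v1c1. For membrane proteins it was 0.50 for Ctns, 0.46 for Npc1 and 0.23 for Ostm1. For luminal proteins it was 0.73 for Neu1, 0.51 for Naglu and for Manba, 0.46 for Gla, 0.37 for Hexa, 0.30 for Ctsa, 0.29 for Gaa, 0.28 for Gusb, 0.21 for Ctsd and 0.15 for Tpp1.

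The same test in hepatocytes gave 0.72 for Ctns, 0.65 for Neu1, 0.64 for Atp6v1b2 and 0.52 for Ostm1. For AICAR in MEFs it gave 0.27 for Atp6v0b, 0.23 for Hexa, 0.16 for Atp6v1g1, 0.14 for Ctsb, 0.14 for Ctsd, -0.26 for Ids and -0.47 for Ctsz.

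Neu1 in dKO MEFs with vehicle stood at 8.22 in technical replicate 3, apart from the 8.10, 8.11 and 8.10 of the other arrays. It was the only such array in 75 groups of 15 members, and chance singles out about 1 group in 20.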

How the results depend on the processing

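Counts of called members that moved by over 1.5 times were as follows. The shares of all genes printed above belong to the fits without these changes, and none is given for the alternatives. With array width as a covariate, 20 members were called for 991 in WT MEFs (36 without it) and 8 for the difference between genotypes (21). With the mean of all probe sets, 2 were called for 991 in dKO MEFs (5) and 1 for the AICAR difference in hepatocytes (0). Without the intensity trend, 4 were called for the AICAR difference in MEFs (7) and 2 for AICAR in WT hepatocytes (4), where quantile normalization gave 11 and the level filter 7. With every hepatocyte array as a sample, which counts technical replicates as independent, the counts were 37 and 3 for 991 in WT and dKO, 31 for their difference, 21 and 29 for AICAR, 12 for its difference and 26 for the genotype. With no replicate block in hepatocytes they were 6 for 991 in WT, 0 for its difference, and 0 and 1 for AICAR in WT and dKO. With the technical replicate number as a replicate block in MEFs, 36 members were called for 991 in WT, 4 in dKO and 20 for the difference; no MEF count moved by over 1.5 times.

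Leaving out 1 MEF array, or 1 hepatocyte preparation, gave 31 to 40 called members for 991 in WT MEFs, 3 to 5 in dKO, 13 to 27 for the difference and 4 to 9 for the AICAR difference. In hepatocytes it gave 5 to 17 for 991 in WT, 0 to 0 for the difference, 0 to 3 for AICAR in WT and 2 to 9 in dKO. Some fits held a lower call for 991 in MEFs. Without WT vehicle replicate 4, 34 members were higher and 1 lower in WT. Without WT vehicle replicate 2, the difference was higher in 26 and lower in 1. With the mean of all probe sets, 33 were higher and 1 lower in WT, and the difference was higher in 18 and lower in 1.

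Values changed sign only when other probe sets of a gene, or their mean, were used. For 991 in MEFs these were Atp6v1b2 (-0.01 and -0.07 in WT, -0.02 in dKO, -0.12 and -0.05 for the difference), Atp6v1h (-0.09 in WT, -0.08 for the difference), Atp6ap2 (-0.01 in dKO), and, for the difference, Ctsa (-0.12) and Neu1 (-0.16). For AICAR in WT MEFs they were Atp6v1b2 (-0.01), Atp6v1h (-0.02), Mcoln1 (-0.14), Lamp2 (0.12 and 0.17) and Ids (0.05 and 0.02). In dKO MEFs they were Clcn7 (-0.09) and Npc2 (0.62, and 0.10 as the mean), and for the difference Atp6v1g1 (-0.09 and -0.01), Ctsz (0.03) and Ids (0.14). Between MEF genotypes they were Atp6v1e1 (-0.22), Ctsf (-0.17), Ids (0.12) and Galns (-0.06), and for AICAR in dKO hepatocytes Atp6v1h (-1.11, and -0.28 as the mean). The causes were not tested, and the number of arrays, or of hepatocyte preparations, limits the precision.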
